A study of Rattus norvegicus with 6 samples.

Results

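The calmodulins and calcium/calmodulin-dependent (CaM) kinases of the rat amygdala are described here through 9 genes, taken by their symbols from the 38445 genes counted in each library. They are the calmodulin genes Calm2 and Calm3, the 4 genes of CaM kinase II (Camk2a, Camk2b, Camk2d and Camk2g), CaM kinase IV (Camk4) and the upstream CaM kinase kinases (Camkk1 and Camkk2). RNA-seq was carried out on adult male Sprague Dawley rats of the wild type. Control rats were injected intraperitoneally with saline, acute ethanol rats with ethanol at 1 g/kg by the same route, and the amygdala of both groups was taken 1 h later. The dissection held the central, medial and basolateral nuclei together. RNA of 2 rats was pooled for each library, so that 6 rats per group gave 3 control and 3 ethanol libraries. The comparison asks whether acute ethanol, at a dose that reduces anxiety-like behavior in this model, changed the RNA of these genes. Only males were used, and a library averages over both rats of a pool and over all cell types of the tissue.

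Calmodulin is a small calcium sensor present in every cell, and its vertebrate genes code for one and the same protein. When calcium enters a neuron through NMDA receptors or voltage-gated channels, calcium-loaded calmodulin binds and opens the CaM kinases. CaM kinase II is a ring of many subunits, of which the alpha and beta subunits predominate in forebrain neurons, and it strengthens synapses by phosphorylating AMPA receptors and scaffold proteins. CaM kinase IV is found largely in the nucleus, where it phosphorylates CREB. It is itself switched on by the CaM kinase kinases, the second of which also activates the AMP-activated protein kinase.

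Promoter sequences are shown for 3 of the kinases because they differ in base composition. Camk2a and Camk2b had the highest levels of the kinases, and Camk4 had the largest difference between the groups. The sequences are RefSeq's, in the build GRCr8, and run from 250 bases before to 50 bases after the annotated start, 5′ to 3′ on the strand of the gene. Capitals mark every TGACG, the core of the cAMP response element to which CREB binds, and every GGGCGG, the GC box, on either strand. The sequences lie at chr18:56648930-56649229 (plus strand, Camk2a), chr14:85147895-85148194 (minus strand, Camk2b) and chr18:24856902-24857201 (plus strand, Camk4).
Camk2a: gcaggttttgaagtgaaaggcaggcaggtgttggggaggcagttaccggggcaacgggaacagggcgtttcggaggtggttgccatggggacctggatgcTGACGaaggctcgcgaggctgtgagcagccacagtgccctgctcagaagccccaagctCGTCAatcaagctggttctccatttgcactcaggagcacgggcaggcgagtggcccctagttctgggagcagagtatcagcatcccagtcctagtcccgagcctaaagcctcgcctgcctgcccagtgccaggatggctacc
Camk2b: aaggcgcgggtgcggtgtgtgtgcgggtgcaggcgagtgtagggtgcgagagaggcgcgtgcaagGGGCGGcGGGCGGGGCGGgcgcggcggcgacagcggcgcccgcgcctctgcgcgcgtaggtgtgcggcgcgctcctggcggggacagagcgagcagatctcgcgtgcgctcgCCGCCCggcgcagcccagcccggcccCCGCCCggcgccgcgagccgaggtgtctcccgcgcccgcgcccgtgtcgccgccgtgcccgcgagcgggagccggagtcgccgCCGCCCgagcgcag
Camk4: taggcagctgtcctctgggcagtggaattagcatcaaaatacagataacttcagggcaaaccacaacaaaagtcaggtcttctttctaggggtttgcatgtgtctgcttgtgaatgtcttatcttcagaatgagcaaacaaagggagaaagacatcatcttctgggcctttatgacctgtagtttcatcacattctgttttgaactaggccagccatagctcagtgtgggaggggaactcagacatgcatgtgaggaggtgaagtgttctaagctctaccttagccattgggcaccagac
The Camk2b window was 81.3% G or C and held 59 CpG dinucleotides and 6 GC boxes, some of them overlapping. The Camk2a window was 61.3% G or C, with 12 CpG and 2 matches to the core of the cAMP response element. The Camk4 window was 45.7% G or C and held no CpG, which was so for 5.47% of 33469 promoters of the same length. The median promoter had 51.7% G or C and 7 CpG. Promoters were found for 6 of the 9 genes. The windows of Camk2d, Camk2g and Camkk1 were 74.7%, 80.0% and 78.7% G or C and held 3, 9 and 4 GC boxes, and Camkk1 had 1 such core. The core was found in 21.2% of all promoters and a GC box in 33.1%. The full cAMP response element TGACGTCA (1.83% of promoters), the TATA box TATAAA (14.2%) and the glucocorticoid response element (0.0149%) did not occur in the 6 windows, searched on both strands. The core is part of the full element, so these searches are not separate. A match of letters is a description and says nothing of binding.

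Library depth was 62576504 to 70755739 assigned reads, of which the 9 genes took 0.338% to 0.385%. Levels are given as CPM, the count over the library's TMM-scaled total times 1e+06, and differences as log2 fold changes, ethanol over control. The test was edgeR's quasi-likelihood test over 18141 genes with Benjamini-Hochberg adjustment and the study's threshold of 0.2. Nothing in the labels pairs the rats of a library with those of another, and p-values measure the spread between pooled libraries. Of 8 pan-neuronal markers, 7 were at 76.0 CPM or more in every library, while Eno2 lay at 0 to 0.0765 CPM. Libraries differed in their makeup. The 6 choroid plexus markers summed to 499, 1081 and 868 CPM in the controls, to 10.7 and 11.4 CPM in ethanol replicates 1 and 2, and to 462 CPM in ethanol replicate 3, with Otx2 at or next to 0 throughout. Ethanol replicate 3 also had the highest sums of the oligodendrocyte list (9727 CPM, against 3549 to 8379 CPM in the other libraries) and the astrocyte list (5321 CPM, against 4006 to 4730 CPM). The counts and the results that moved most are also given without this library.

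None of the 9 genes passed the threshold. With edgeR's quasi-likelihood test, 0 of the 9 genes and 0 of all 18141 (0%) had an adjusted p below 0.2. At an unadjusted p below 0.05 there were 2 of the 9, Camk4 and Camkk2, both higher after ethanol, against 4.15% of all genes (1.57% higher and 2.58% lower). Of the 9, 8 had a log2 fold change above 0, with a median of 0.10 and a range of -0.04 to 0.36, where the median of all genes was 0.01 and 52.6% lay above 0. Scaled by the pan-neuronal markers in place of TMM, Calm2 turned to -0.02, so 7 of the 9 were then above 0, with a median of 0.03. This scaling also moved the median of all genes, to -0.06. With TMM, the median of the 9 genes was 0.19 without ethanol replicate 3 and also without control replicate 2, where all 9 lay above 0. Without ethanol replicate 2 it was 0.05. DESeq2 and edgeR's likelihood ratio test also called 0 of the 9, although they called 74 (0.408%) and 77 (0.424%) of all genes. Limma-voom called 0 of the 9 and 0 of all genes. The study's own analysis of its RNA-seq did report genes at an FDR below 0.2, and its calls were not compared here. At an unadjusted p below 0.05, 1 of the 9 passed without control replicate 1, control replicate 3, ethanol replicate 1 or ethanol replicate 2. There were 2 without control replicate 2. In this order, 719 of 18387, 570 of 18401, 659 of 18439, 581 of 18414 and 689 of 18391 tested genes had such a p. Without ethanol replicate 3 the count of the 9 was 4 (Camk2a, Camk2d, Camk4 and Camkk2, all higher). In that fit 8.87% of all genes had such a p (4.48% higher). All 9 passed the filter on low counts.

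**Figure D1:**
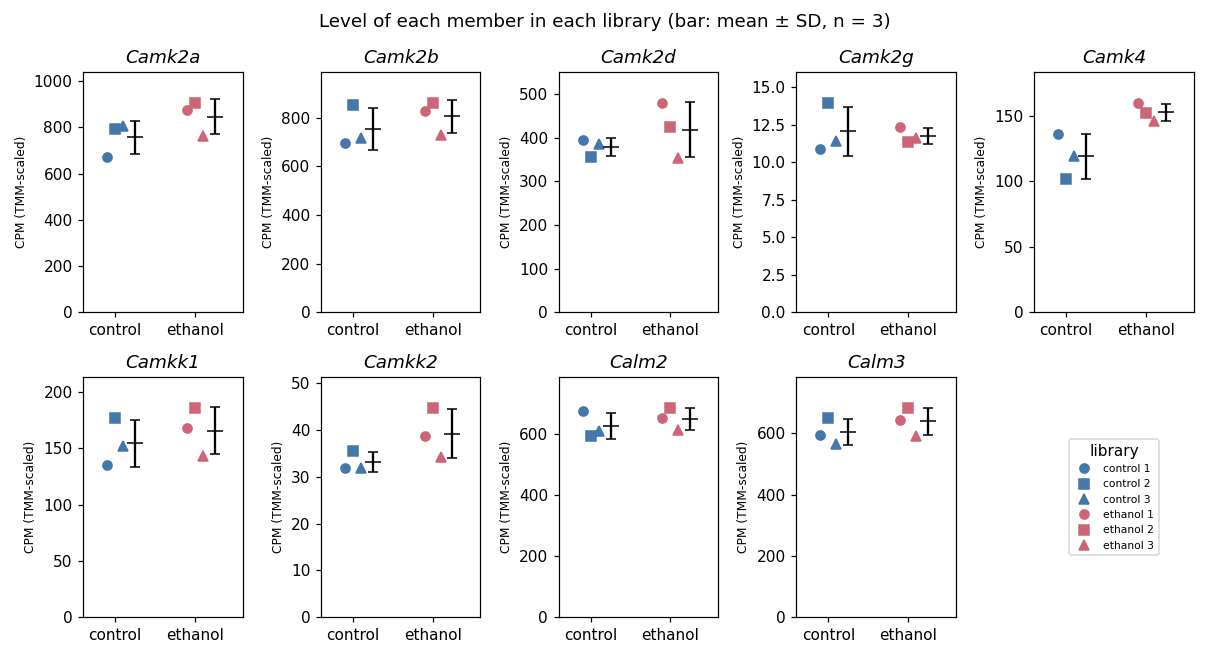
CPM of each of the 9 genes in the 3 control (blue) and 3 ethanol (red) libraries, with the symbol giving the replicate and the black bar the mean ± SD. The groups are apart for Camk4, where the ethanol libraries lie at 147 to 160 CPM and the controls at 102 to 136 CPM, and they overlap for the other 8 genes.

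Calm2 (NCBI gene 50663) occupies 11067675 to 11080078 of chromosome 6 in Rnor_6.0, the build of all gene positions given, on the minus strand in 7 exonic blocks. Its level was 673, 593 and 609 CPM in the controls and 651, 682 and 610 CPM after ethanol. The groups overlapped, with control replicate 1 next to the highest ethanol value. This gave a log2 fold change of 0.05 (standard error 0.08, 95% interval -0.14 to 0.25). Calm3 (NCBI gene 24244, chromosome 1 from 78844520 to 78851628, minus strand) was at 594, 648 and 565 CPM in the controls and at 643, 680 and 592 CPM after ethanol. The groups overlapped here too, and the log2 fold change was 0.08 (standard error 0.09, 95% interval -0.12 to 0.29). With single libraries left out the log2 fold change of Calm2 ran from 0.01 (without ethanol replicate 2) to 0.10 (without control replicate 1), and that of Calm3 from 0.04 (without ethanol replicate 2) to 0.14 (without control replicate 2). The counting rested on 35847 to 46027 reads per library for each of these genes, so the intervals reflect the spread between libraries and not counting error.

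Camk2a (NCBI gene 25400), the alpha subunit of CaM kinase II, lies on chromosome 18 from 56193978 to 56295869, on the plus strand. It was at 674, 791 and 806 CPM in the controls and at 874, 905 and 761 CPM after ethanol. Ethanol replicates 1 and 2 were above every control, and ethanol replicate 3 fell between the control values. The log2 fold change was 0.16 (standard error 0.11, 95% interval -0.08 to 0.41, unadjusted p = 0.167 from edgeR's test). Without ethanol replicate 3 it was 0.23 (unadjusted p = 0.039 and adjusted p = 0.539 from edgeR's test), and without control replicate 1 it was 0.08.

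Camk2b (NCBI gene 24245, chromosome 14 from 86208876 to 86297727, minus strand) codes for the beta subunit, which binds actin. Its level was 696, 853 and 716 CPM in the controls and 828, 860 and 730 CPM after ethanol, and the groups overlapped over most of their range. Its log2 fold change was 0.10 (standard error 0.11, 95% interval -0.16 to 0.35). It was 0.03 without control replicate 1, 0.05 without ethanol replicate 2, 0.06 without control replicate 3, 0.16 without ethanol replicate 3 and 0.19 without control replicate 2. Camk2d (NCBI gene 24246, chromosome 2 from 230900907 to 231132207, plus strand), the delta subunit that is also abundant in heart, was at 395, 356 and 386 CPM in the controls. After ethanol it was at 479, 425 and 353 CPM. Its highest and its lowest value both came from ethanol libraries. Its log2 fold change was 0.14 (standard error 0.12, 95% interval -0.12 to 0.41). It was 0.26 without ethanol replicate 3 (unadjusted p = 0.0148 and adjusted p = 0.453 from edgeR's test) and 0.04 without ethanol replicate 1.

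Camk2g (NCBI gene 171140, chromosome 15 from 3936721 to 3995740, plus strand), the gamma subunit, stood far below the other CaM kinase II genes, with 10.9, 13.9 and 11.4 CPM in the controls and 12.3, 11.3 and 11.6 CPM after ethanol. The ethanol libraries lay within the range of the controls, and the log2 fold change was -0.04 (standard error 0.11, 95% interval -0.29 to 0.22). It turned to 0.08 without control replicate 2, the highest library. Its counts were 711 to 989 per library. Ndst2, the next gene on the same strand, had 0 counts in all 6 libraries, while Zswim8 beyond it had 324 to 458. Reads that aligned to several places were not counted, and the part of this rule in the level of Camk2g was not tested.

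Camk4 (NCBI gene 25050) lies on chromosome 18 from 25746878 to 25975962, on the plus strand, in 15 exonic blocks with 12016 bp. Its level was 136, 102 and 119 CPM in the controls and 160, 152 and 147 CPM after ethanol. All 3 ethanol libraries were above all 3 controls, as in 3.65% of all genes tested (the reverse held for 5.19%, and for 0 of the 9), and the controls varied more than the ethanol libraries (SD 17.2 against 6.69 CPM, n = 3 each). The mean went from 119 to 153 CPM, a difference of 28.3% and a log2 fold change of 0.36 (standard error 0.10, 95% interval 0.12 to 0.60). The unadjusted p from edgeR's test was 0.00897 and the adjusted p 1.0, and a 2-sided exact permutation test gave p = 0.1, the smallest that 3 against 3 libraries allow. Over 14 alternative settings it stayed, as a log2 fold change, between 0.26 (without control replicate 2, the lowest library) and 0.46 (without control replicate 1). The unadjusted p was below 0.05 in all 14, and the adjusted p ranged from 0.325 with DESeq2 to 1.0. Taken alone, Camk4 had groups that did not overlap and an unadjusted p below 0.05 from edgeR's test. It had the largest log2 fold change of the 9 genes, and it did not pass once all genes were allowed for.

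Camkk1 (NCBI gene 60341, chromosome 10 from 59585023 to 59608180, plus strand) and Camkk2 (NCBI gene 83506, chromosome 12 from 39253409 to 39302601, plus strand) code for the kinases that phosphorylate CaM kinase IV. Camkk1 was at 135, 176 and 152 CPM in the controls and at 168, 185 and 143 CPM after ethanol. The groups overlapped, and the log2 fold change was 0.10 (standard error 0.12, 95% interval -0.18 to 0.38). It came to 0.00 without control replicate 1, to 0.01 without ethanol replicate 2, to 0.19 without ethanol replicate 3 and to 0.21 without control replicate 2. Camkk2 was at 31.9, 35.5 and 31.9 CPM in the controls and at 38.7, 44.5 and 34.2 CPM after ethanol. Ethanol replicates 1 and 2 were above every control, and ethanol replicate 3 was below the highest control. The log2 fold change was 0.24 (standard error 0.10, 95% interval 0.00 to 0.48, unadjusted p = 0.0483 and adjusted p = 1.0 from edgeR's test). Its unadjusted p was below 0.05 in 6 of 14 alternative settings. The log2 fold change was 0.14 without ethanol replicate 2, the highest library, and 0.33 without ethanol replicate 3. The exons of none of the 9 genes share bases with another gene of the annotation on either strand.

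**Figure D2:**
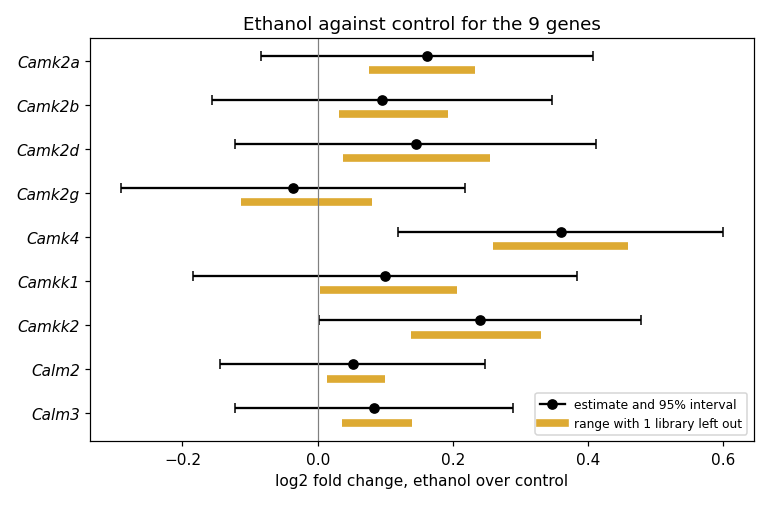
Log2 fold change, ethanol over control, of each of the 9 genes (black point) with its 95% interval from edgeR's quasi-likelihood fit, and in yellow the range when single libraries are left out. The interval of Camk4 runs from 0.12 to 0.60 and that of Camkk2 begins next to 0, while the other 7 intervals include 0.

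Levels of different genes were compared per kb of counted exon. In the controls Calm3 (1006 ± 70.1 CPM per kb, SD, n = 3) and Calm2 (685 ± 46.2 CPM per kb) were highest, with only 10 and 30 of the 18141 tested genes above them. Camk2a (505 ± 48.5 CPM per kb) followed with 56 genes above it, then Camk2b (175 ± 19.8 CPM per kb), Camk2d (59.9 ± 3.18 CPM per kb) and Camkk1 (41.4 ± 5.57 CPM per kb). Camkk2 (15.6 ± 0.982 CPM per kb), Camk4 (9.92 ± 1.43 CPM per kb) and Camk2g (2.71 ± 0.367 CPM per kb) were the lowest. This order was the same in all 6 libraries, and the ranges of neighbouring genes over the 6 libraries did not overlap. The order depends on the annotation. Its counted exons come to 1498 bp for Camk2a and 599 bp for Calm3 but to 12016 bp for Camk4, and reads from transcript ends outside these exons were not counted.

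The makeup of CaM kinase II RNA was compared within libraries, which does not depend on the scaling between them. Of the CaM kinase II counts per kb, Camk2a took 66.5%, 67.3% and 70.1% in the controls and 68.3%, 69.2% and 69.1% after ethanol. Camk2b took 21.6% to 25.2% in the controls and 22.5% to 23.0% after ethanol, Camk2d 7.17% to 9.23% and 7.58% to 8.87%, and Camk2g 0.334% to 0.399% and 0.292% to 0.355%. The groups overlapped for all 4 genes. These shares depend on the length correction. Of the raw counts, Camk2a took 38.0% to 42.0% and Camk2b 37.3% to 42.3% over the 6 libraries. The Camk2a share was 0.884 percentage points higher on average after ethanol (2-sided exact permutation test, p = 0.4, adjusted p = 0.8 over the 4 shares). No change in the RNA shares of the 4 genes was detectable with 3 libraries per group, and the protein was not measured.

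**Figure D3:**
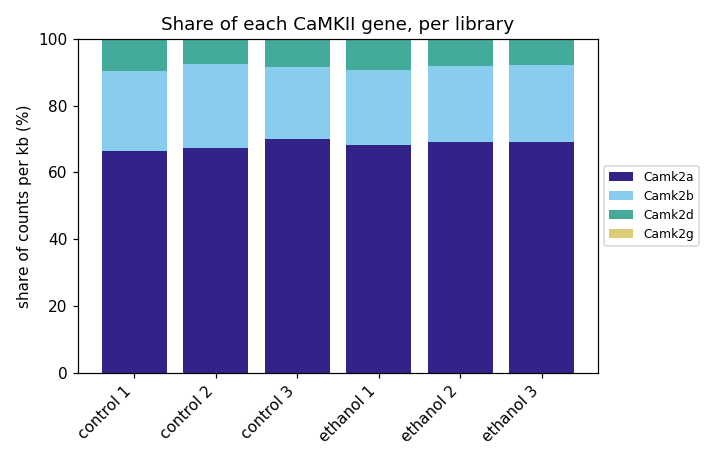
Share of each gene in the summed counts per kb of the CaM kinase II genes in each of the 6 libraries, in percent. Camk2a makes up 66.5% to 70.1%, the bars of the groups are alike, and the Camk2g share of under 0.4% is too thin to be seen.

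The summed levels of these genes were highest in the same libraries as the pan-neuronal markers, ethanol replicates 1 and 2, but not lowest in the same library. The CaM kinase II genes summed to 1775, 2014 and 1919 CPM in the controls and to 2194, 2201 and 1856 CPM after ethanol. The 8 pan-neuronal markers summed to 7343, 7539 and 6975 CPM in the controls and to 8037, 8233 and 6717 CPM after ethanol. In both sums ethanol replicates 1 and 2 were the highest and ethanol replicate 3 lay below the median of the controls. The 8 markers of pallial glutamatergic neurons, in which Camk2a is strongly expressed, summed to 602, 999 and 746 CPM in the controls and to 909, 1124 and 627 CPM after ethanol. The 9 markers of striatal-type GABA neurons ran the other way in several libraries, with 543, 368 and 422 CPM in the controls and 527, 395 and 578 CPM after ethanol. Camk4 had the same order as these markers among the controls but not among the ethanol libraries. The oligodendrocyte and endothelial sums also had this order among the controls, so the match was not particular to the striatal-type list. Scaled by the pan-neuronal markers, the log2 fold change of Camk2a was 0.09, that of Camkk2 0.17 and that of Camk4 0.29. The unadjusted p from edgeR's test was 0.378 for Camk2a, 0.127 for Camkk2 and 0.0446 for Camk4, so Camkk2 was no longer below 0.05. In that fit the median of all genes was -0.06, against 0.01 with TMM. Among the markers, 1 of 8 of the pallial list (Tbr1, log2 fold change 0.55) and 1 of 6 of the microglial list (Tmem119, log2 fold change 0.57) had an unadjusted p below 0.05, both higher. There were 0 such genes among the 4 general GABA neuron, 6 astrocyte, 6 oligodendrocyte and 5 endothelial markers. Of the 5 tested choroid plexus markers 3 had one, and of the 6 ependymal and cilia markers 5, all of them lower. These counts are from edgeR's quasi-likelihood test with TMM scaling. There 1.57% of all genes were higher and 2.58% lower at this level, and no marker passed the adjusted threshold. In bulk tissue fewer cells of a type and less RNA per cell cannot be told apart, and the part of cell makeup in the members' values was not tested further.

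**Figure D4:**
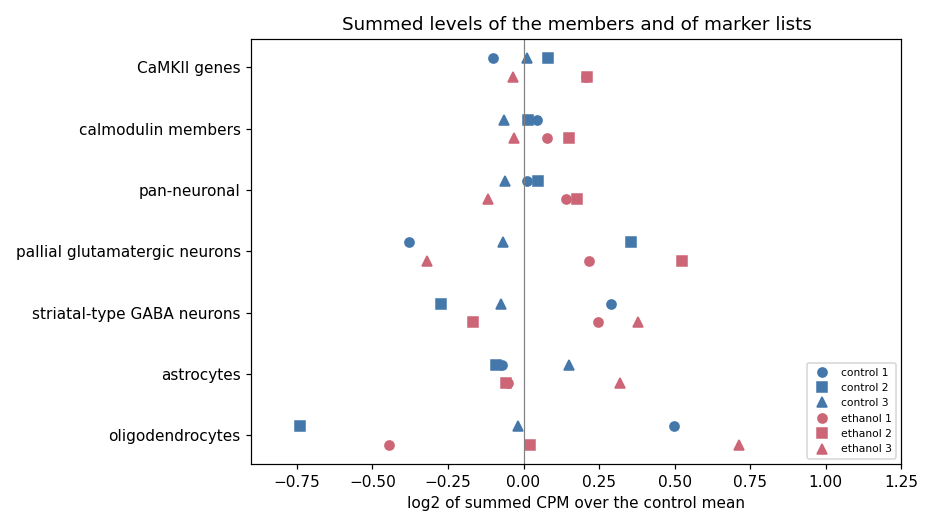
Log2 of the summed CPM of the CaM kinase II genes, the calmodulin genes Calm2 and Calm3 and 5 marker lists over the mean of the controls, for each control (blue) and ethanol (red) library. Ethanol replicates 1 and 2 stand highest in the CaM kinase II and pan-neuronal rows, and ethanol replicate 3 stands highest in the oligodendrocyte and astrocyte rows.

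Other genes of calmodulin signaling were read from 7 lists with 51 genes, all of which were tested. None reached an adjusted p below 0.2, and the count at an unadjusted p below 0.05 was 0 of 51, against 4.15% of all genes, with edgeR's quasi-likelihood test. DESeq2 gave 1 of 51, against 646 of all 18141 genes, with none of the 51 past the adjusted threshold. Without ethanol replicate 3 the count was 8 of 51, against 8.87% of all genes in that fit, and it was made up of 4 of the 8 calcineurin genes, 2 of the 7 partners of CaM kinase II, 1 of the 8 other kinases and 1 of the 9 other enzymes. It was 2 without control replicate 3, against 570 of 18401 genes, and 1 without control replicate 2, against 689 of 18391. None of the 51 passed the adjusted threshold in these fits. With TMM and all 6 libraries, the median log2 fold change of the 51 was 0.06, with a range of -0.11 to 0.24. Of the 51, 40 lay above 0, against 52.6% of all genes. Their summed level was 8908 to 9644 CPM in the controls. After ethanol it was 10130, 10370 and 8585 CPM in replicates 1, 2 and 3. All 3 ethanol libraries were above all 3 controls for 1 of the 51, against 3.65% of all genes tested. This was Pde1b, a calmodulin-activated phosphodiesterase named after its values were seen. It was at 198, 206 and 184 CPM after ethanol and at 179, 182 and 168 CPM in the controls. Its log2 fold change was 0.15 (standard error 0.07).

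Among the inhibitors and phosphatases of the CaM kinases, Camk2n1, a small protein that blocks CaM kinase II, was at 384, 352 and 420 CPM in the controls and at 435, 419 and 474 CPM after ethanol. One ethanol library lay just under the highest control. Its log2 fold change of 0.20 (standard error 0.09, unadjusted p = 0.0584 from edgeR's test) was the highest of this list of 4, which also held Camk2n2 at 0.06 and had a median of 0.07. The median of the 8 other calmodulin-regulated kinases was 0.06, with Camkv, a catalytically inactive relative, at 0.05 and Pnck at -0.01.

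The 3 neuronal proteins that bind and store calmodulin had a median log2 fold change of 0.10, with neurogranin (Nrgn) at 0.10 (standard error 0.15) and the growth-associated protein Gap43 at 0.07 (standard error 0.11). Calcineurin, the calmodulin-activated phosphatase that opposes the CaM kinases, and its regulators had a median of 0.10 over 8 genes, with the catalytic gene Ppp3cb at 0.12 and the regulatory gene Ppp3r1 at 0.08. For the 9 other calmodulin-activated enzymes the median was 0.03, with the Ras exchange factor Rasgrf1 at 0.03 and the phosphodiesterase Pde1a at 0.00. For the 7 anchoring partners and substrates of CaM kinase II it was 0.05, with synapsin (Syn1) at 0.12 and the AMPA receptor gene Gria1 at 0.00. For the 12 targets downstream of the CaM kinase kinases and CaM kinase IV it was 0.02, with the CREB coactivator Crtc1 at 0.05 and the AMP-activated kinase subunit Prkag1 at -0.06. These medians ran from 0.02 to 0.10, next to 0.10 for the 9 genes, and the lists were not tested as sets.

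**Figure D5:**
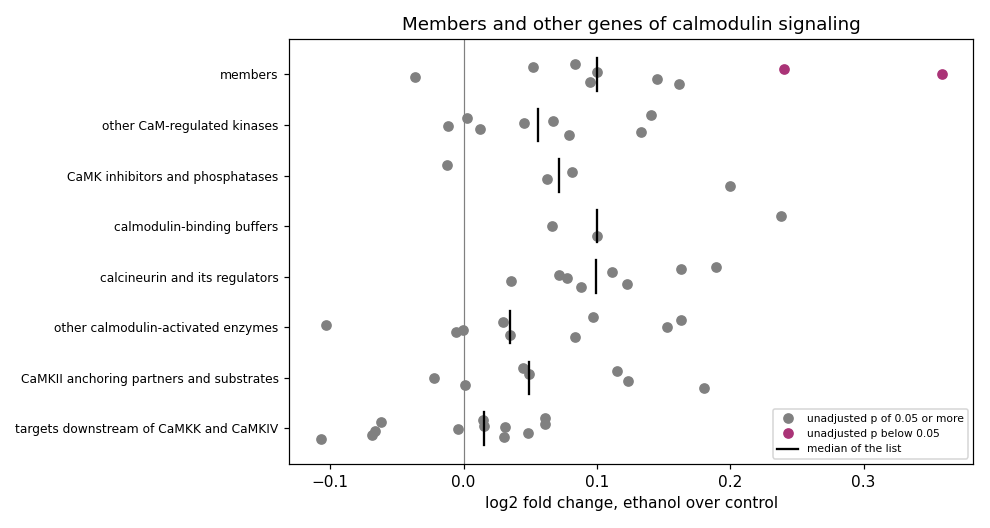
Log2 fold change, ethanol over control, of the 9 genes and of 51 other genes of calmodulin signaling in 7 lists, each point 1 gene and each black line the median of a list. Camk4 at 0.36 and Camkk2 at 0.24 are the only points with an unadjusted p below 0.05.

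The genes whose pattern over the 6 libraries was closest to that of Camk2a were sought among 10414 tested genes with a mean of at least 10 CPM. The measure was the root mean square difference between the log2 CPM deviations from each gene's own mean. Among the closest were Hrk (0.0325), Kcnf1 (0.033), Septin5 (0.0341) and Rap1gap2 (0.0348). Camk2a itself deviated by -0.24, -0.01 and 0.01 in the controls and by 0.13, 0.18 and -0.07 after ethanol, and Hrk by -0.21, -0.01 and 0.06 and by 0.12, 0.16 and -0.12. In each of these 4 genes control replicate 1 was the lowest library and ethanol replicates 1 and 2 were the highest. The genes were chosen for their likeness to Camk2a, so this shared order follows from the choice.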

How the data were processed

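RNA-seq of the amygdala was analyzed in 3 control and 3 ethanol libraries. The deposited values are counts: per the labels and file headers, reads (single-end, 100 nt, trimmed for quality) were aligned by the authors with STAR 2.7.0f and counted them with featureCounts (Subread 1.6.3) over the exons of each Rnor_6.0 gene. Counting was reverse-stranded, and reads with several alignments or over several genes were left out. No normalization had been applied.

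Symbols were matched by NCBI gene identifier for 29322 of 38445 genes. The tools were R 4.3.3, edgeR 4.0.16, limma 3.58.1 and DESeq2 1.42.0. Counts were kept by filterByExpr (minimum 10 counts, 15 in total), scaled by TMM (factors 0.976 to 1.01) and compared by the quasi-likelihood test. Log2 CPM carries a prior count of 2. Standard errors are the log2 fold change over the root of the F statistic. Exact permutation tests go through 20 label swaps.

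The members and lists were chosen with earlier results of these data known. Besides the members, the rule for named genes took pathway genes with an unadjusted p below 0.05 (there were 0), the 2 with the highest counts per kb in each list, and genes most like Camk2a. Pde1b and markers beyond this rule were named after their values were seen. Some results, the shares of the calmodulin genes among them, are not reported here.

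Between 62576504 and 70755739 reads were assigned per library, where 3 counts are 0.0424 to 0.0479 CPM, a floor for counting error only. No 2 libraries of a group were alike within counting error (chi-square per degree of freedom 14.3 to 67.6). Alternatives were other scalings, no filter, other tests, a replicate block and leaving out each library.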

Additional observations from a re-analysis of the deposited data

How the results depend on the processing

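The number of the 9 genes with an adjusted p below 0.2 was 0 in all 14 alternatives. Over all genes, 0 in the quasi-likelihood test became 74 with DESeq2 and 77 with edgeR's likelihood ratio test, and 0 to 83 with each library left out, the highest without ethanol replicate 3 and 4 without ethanol replicate 1. At an unadjusted p below 0.05, 37.8% of 753 genes were higher, against 23.7% with library size alone, 15.4% with scaling by pan-neuronal markers and 50.5% of 1629 without ethanol replicate 3. For Calm2 the log2 fold change was -0.0163 with pan-neuronal scaling, where the median of all genes was -0.0562. The log2 fold change of Camk2g ranged from -0.114 to 0.0803 with each library left out. The other 7 members kept their sign in all alternatives.

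With each library left out, the difference in share in percentage points, ethanol minus control, ranged from 0.169 to 1.96 for Camk2a, -1.74 to 0.0381 for Camk2b and -0.54 to 0.49 for Camk2d. With no length correction it was 0.0418 for Camk2d. The causes were not tested.

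The labels give both groups the replicate numbers 1 to 3, given to different rats. Same-numbered libraries deviated from their group means with correlations of 0.0264, 0.388 and 0.211, over 14241 genes. Libraries with different numbers had correlations of -0.427 to 0.305. These ranges overlap, so the correlations do not decide whether same-numbered libraries belong together. With the replicate number as a block, edgeR's quasi-likelihood test called 0 genes and 0 of the 9 members, with 1015 genes at an unadjusted p below 0.05, the log2 fold change of Camk4 was 0.37 and that of Camkk2 0.23, and the Camk2a share differed by 0.884 points. With 3 libraries per group, the 95% intervals of the members other than Camk4 and Camkk2 included 0. The intervals of Camk4 and Camkk2 lay above 0, but they are not adjusted for the number of genes tested.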
